A study of Mus musculus with 14 samples.

Results

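The 9 genes described here encode transcription factors that act in goblet and Paneth cells, the mucus-secreting and antimicrobial cells of the gut: Spdef, Gfi1, Creb3l1, Creb3l4, Bhlha15, Foxa1, Foxa2, Foxa3 and Klf4. They were picked by symbol, and all 9 were found among the 36536 genes counted. In the crypt epithelium a progenitor that switches on ATOH1, a basic helix-loop-helix activator, leaves the absorptive path and becomes secretory. Factors that act later then separate goblet and Paneth cells from enteroendocrine cells and drive the build-up of secretory machinery. SPDEF, of the Ets family, promotes the maturation of goblet and Paneth cells, and GFI1, a zinc-finger repressor, holds back the endocrine programme. BHLHA15 (also called MIST1) enlarges the secretory apparatus of exocrine cells, and the related CREB3L1 and CREB3L4 are leucine zipper activators held in the membrane of the endoplasmic reticulum until they are cut free. The forkhead proteins FOXA1, FOXA2 and FOXA3 open chromatin in endodermal tissues, and KLF4 is a zinc-finger factor known for the differentiation of colonic goblet cells and also for its expression in surface absorptive cells.

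The study covers 14 mouse RNA-seq libraries that fall into 6 groups. KO stands for crypts from Atoh1lox/lox mice with VilCreERT2, a tamoxifen-inducible recombinase that the Villin promoter drives in gut epithelium, with 2 libraries from colon and 2 from ileum. WT stands for crypts of littermates that carry 1 floxed and 1 normal Atoh1 allele with the same recombinase, so these controls are heterozygous for the floxed allele, again with 2 libraries per tissue. The crypt donors were 6 to 8 weeks old. GFP stands for live (7AAD-negative) cells that flow cytometry picked for GFP from crypts of Atoh1GFP/GFP mice, whose 2 Atoh1 alleles encode a working ATOH1 protein fused to GFP, with 3 libraries per tissue and no age stated. Sorting and genotype therefore change together between GFP and crypt libraries, and the labels do not say that libraries of a group came from separate mice, so p-values measure the spread between these libraries, which may be technical.

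Because ATOH1 and BHLHA15 bind E-boxes, DNA elements of the letters CANNTG, the 250 bases before the start site are shown for 3 factors whose RNA fell in ileum KO crypts (Spdef, Gfi1, Bhlha15) and for Klf4, which was not called in KO crypts. They are from RefSeq on build GRCm38.p6, 5′ to 3′ on the gene's strand with E-boxes in capitals, for the most upstream start site listed: Spdef at chr17:27728952-27729201 (minus strand), Gfi1 at chr5:107725806-107726055 (minus), Bhlha15 at chr5:144190036-144190285 (plus) and Klf4 at chr4:55532476-55532725 (minus).
Spdef: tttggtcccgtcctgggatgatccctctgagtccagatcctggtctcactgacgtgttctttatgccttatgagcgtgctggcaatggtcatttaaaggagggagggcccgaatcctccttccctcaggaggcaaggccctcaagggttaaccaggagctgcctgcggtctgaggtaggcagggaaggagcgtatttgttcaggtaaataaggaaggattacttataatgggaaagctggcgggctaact
Gfi1: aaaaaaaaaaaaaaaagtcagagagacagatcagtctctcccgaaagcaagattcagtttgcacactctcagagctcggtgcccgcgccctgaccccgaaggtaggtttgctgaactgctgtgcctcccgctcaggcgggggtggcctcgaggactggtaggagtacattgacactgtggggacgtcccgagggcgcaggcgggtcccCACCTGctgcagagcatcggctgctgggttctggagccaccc
Bhlha15: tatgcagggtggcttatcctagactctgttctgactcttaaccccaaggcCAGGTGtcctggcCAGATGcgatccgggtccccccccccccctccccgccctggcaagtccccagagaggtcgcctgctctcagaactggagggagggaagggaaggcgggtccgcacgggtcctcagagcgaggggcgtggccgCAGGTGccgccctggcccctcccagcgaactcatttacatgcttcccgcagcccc
Klf4: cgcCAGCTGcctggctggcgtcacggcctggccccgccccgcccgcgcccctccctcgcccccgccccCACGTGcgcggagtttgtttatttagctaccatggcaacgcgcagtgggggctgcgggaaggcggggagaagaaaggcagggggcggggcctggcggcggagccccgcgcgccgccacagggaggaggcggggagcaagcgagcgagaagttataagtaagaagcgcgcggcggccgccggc
The Spdef window held no E-box, the Gfi1 window held 1 (CACCTG, 42 bases before the start), the Bhlha15 window held 3 and the Klf4 window held 2. Of the 8 members with a window in RefSeq, 5 held a CANNTG, 1 held CAGCTG (Klf4) and 1 held CAGATG on either strand (Bhlha15). Both of those are forms of CANNTG and were searched on both strands. Of all 32851 windows of this length, 66.2% held CANNTG, 13.0% held CAGCTG and 14.4% held CAGATG. These cover every listed start site, so a gene can count more than once, while each member counts by its most upstream window. The start site matters for some: a downstream start of Creb3l4 had 3 E-boxes, 1 of them CAGATG on either strand, and one of Foxa2 had 1. The most upstream windows of both had 0. These matches describe the letters of these windows and say nothing of binding.

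Gene counts were 8848660 to 10870416 in crypt libraries and 7478418 to 12991891 in sorted-cell libraries. Mitochondrial ribosomal RNA made up 30.02 to 44.88% of these counts in sorted-cell libraries, against 0.14 to 0.22% in crypts. Of uniquely placed reads, 24.87 to 52.29% fell outside genes in sorted-cell libraries, against 9.3 to 13.25% in crypts. Both shares therefore change together with sorting and genotype between GFP and crypt libraries. Levels are in CPM (gene counts relative to library size, scaled by TMM factors over all 14 libraries), and a gene is called at an edgeR adjusted p under 0.05. Some libraries stood apart. In ileum GFP 1, 52.29% of uniquely placed reads fell outside genes, against 24.87 to 31.92% in the other sorted-cell libraries. Its 5 stem cell markers summed to 1410 CPM, against 445 and 430 in ileum GFP 2 and 3 and 1385 to 1494 in ileum WT. Most of each sum was Olfm4 alone, at 1068 CPM against 272 and 265, and 1134 and 1256 in ileum WT. Lgr5 had 121 CPM in ileum GFP 1, against 30.0 and 34.0 in GFP 2 and 3 and 40.9 and 31.0 in ileum WT. Smoc2 went the other way (76.6 CPM against 94.7 and 88.4 in GFP 2 and 3). Ileum GFP 1 also had the lowest level of the 3 ileum GFP libraries for all 9 factors. The part of these reads or markers in those levels was not tested. Ileum WT 2 had a summed level of 8 tuft markers of 361 CPM, against 23.8 in ileum WT 1, and a summed level of 9 immune markers of 538 CPM against 1837. Most of both immune sums was Cd74 alone, at 505 CPM against 1711. Colon GFP 1 had 28.8 CPM of Apoa1, against 0.374 and 0.149 in colon GFP 2 and 3. Its Olfm4 was 18.6 CPM, against 0.623 and 1.64. Both genes were high in ileum WT (Apoa1 1655 and 1614 CPM, Olfm4 1134 and 1256 CPM). Of the 3 colon GFP libraries it was highest for Gfi1, Creb3l1, Bhlha15, Foxa1, Foxa2 and Klf4, but not for Spdef, Creb3l4 or Foxa3. The part of this in those levels was not tested. Colon WT 2 had a summed level of 10 absorptive markers of 3616 CPM against 9385 in colon WT 1. Most of that gap was Car1 alone, at 1475 CPM against 6090, while Car4 had 541 against 579. Every sorted-cell library had a lower summed level of 7 epithelial markers (3370 to 5780 CPM) than every crypt library (7496 to 9733 CPM), and 4 of the 7 were called lower in sorted cells of each tissue, with 1 called higher in ileum. Their 8 stromal markers summed to 1.81 to 8.47 CPM, against 40.5 to 107 CPM in crypts.

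Atoh1 matched the labels in every library. Its level was 62.6 and 44.7 CPM in colon WT, 5.20 and 5.90 in colon KO, 41.0 and 39.5 in ileum WT, 1.02 and 0.526 in ileum KO, and 195 to 323 in the sorted cells of either tissue. Some Atoh1 RNA was thus left in KO crypts, more in colon than in ileum (log2 of colon over ileum KO 2.81, SE 0.31, adjusted p = 0.0011).

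All 9 passed the filter on low counts in every comparison. In ileum crypts 4 of the 9 factors fell in KO (Spdef, Gfi1, Creb3l4 and Bhlha15), beside 1.22% of 14415 genes called, 1.09% lower and 0.132% higher. In colon crypts 1 of 9 fell (Gfi1), beside 0.153% of genes called, 0.146% lower and 0.00694% higher, and no member rose in either tissue. The difference of the KO effect between the tissues was called for 0 of 9 members and for 0.00694% of genes, all of these lower, 0% being higher (1 gene by edgeR, against 563 at an unadjusted p under 0.05 and 56 by DESeq2). The median log2 fold change of the 9 was −1.69 in ileum and −1.24 in colon, where the median of all genes was 0.01 in both. In sorted GFP cells 8 of 9 were higher than in WT crypts in ileum, beside 52.8% of 15274 genes called, 24.6% higher and 28.1% lower. In colon 6 of 9 were higher and 1, Klf4, was lower, beside 45.9% of genes called, 22.3% higher and 23.6% lower. In bulk RNA, a loss of cells of a type and a loss of RNA per cell cannot be told apart. Without ileum KO 1 or without ileum KO 2, 0 of 9 members were called in ileum, where 12 and 11 genes were called in all, and the Gfi1 call in colon was lost without colon KO 1, colon KO 2 or colon WT 2. The DESeq2 test called 5 of 9 in colon (Spdef, Gfi1, Creb3l4, Bhlha15 and Foxa3).

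**Figure D1:**
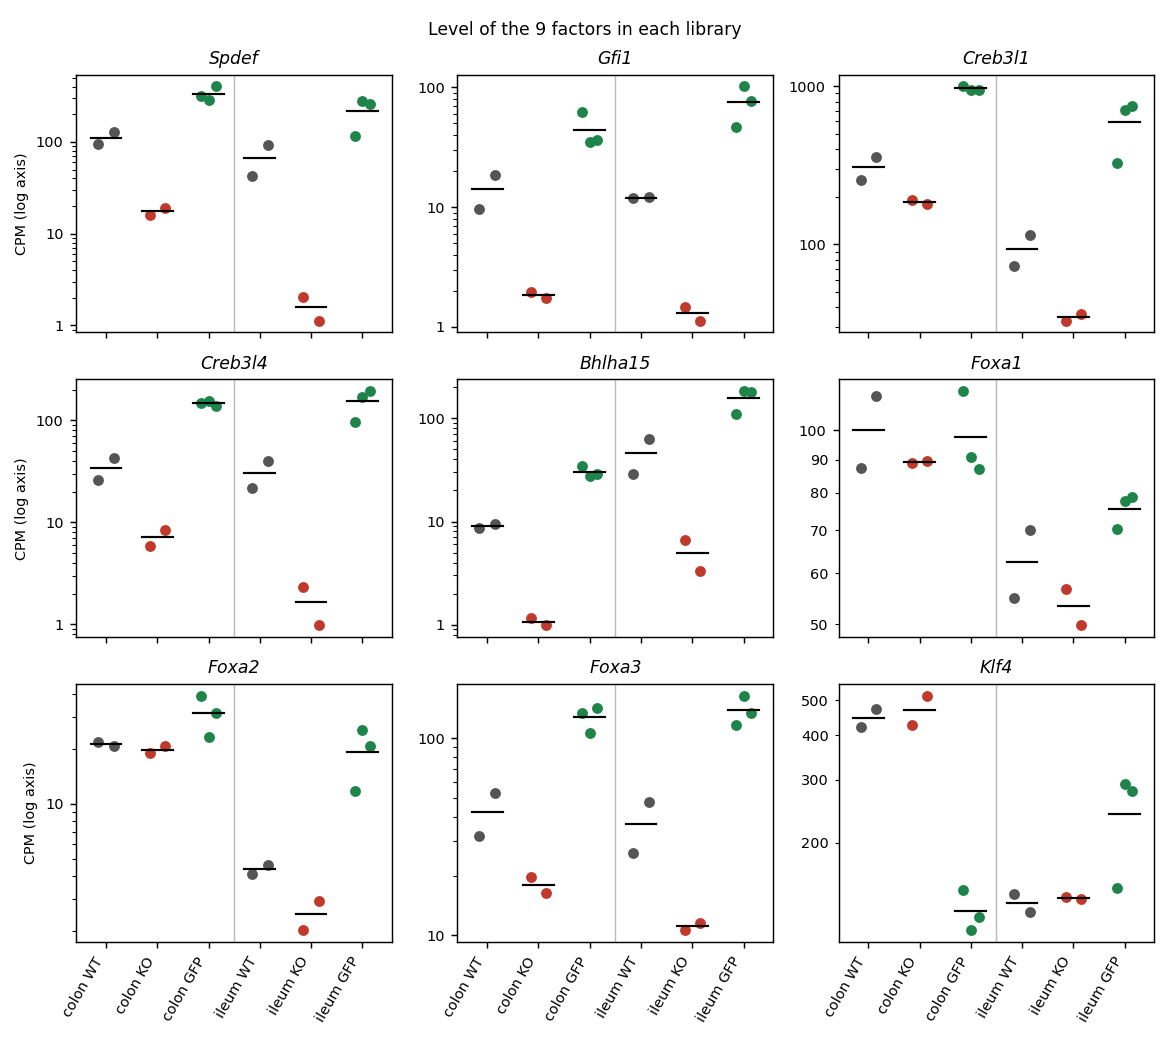
Level of each factor in CPM (log axis, a separate range per panel) in every library of the 6 groups; points are libraries and black lines are group means. For all factors but Foxa1 and Klf4, each tissue's KO libraries lie below its WT libraries and its sorted-cell libraries above them. For Foxa2 in colon the KO libraries lie only just below. Klf4 is highest in colon WT and KO crypts.

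Spdef differed most between WT and KO crypts of the ileum among the 9 factors. Colon WT libraries had 94.0 and 127 CPM, against 16.0 and 19.2 CPM in KO and 317, 284 and 405 CPM in GFP cells. In ileum the values were 42.3 and 92.1 CPM in WT, 2.03 and 1.13 in KO (26 and 15 counts), and 116, 282 and 259 in GFP cells. The groups did not overlap within either tissue. Here and below, a lack of overlap between groups of 2 or 3 libraries is weak, and its share over all genes was not counted. Foxa2 lacked overlap between colon KO and WT too, at a log2 fold change of −0.12 (edgeR adjusted p = 0.965). In order, colon GFP cells were followed by ileum GFP cells, colon WT, ileum WT, colon KO and ileum KO, and of these neighbours only ileum GFP and colon WT overlapped, through ileum GFP 1.

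Spdef fell 41.5-fold in ileum KO crypts (log2 fold change −5.38, SE 0.52, adjusted p = 0.0142), a call lost when only the 4 ileum crypt libraries were fitted (0.144). In colon the log2 fold change was −2.66 (SE 0.41) and did not pass (adjusted p = 0.124), but it did when only the 4 colon crypt libraries were fitted (adjusted p = 0.00509), when all 14 were (0.0224) and with DESeq2 (6.09e-11). The difference between the tissues in the KO effect was 2.72 on the log2 scale (SE 0.66, adjusted p = 0.91), and it was called without ileum WT 1 (3.18, adjusted p = 0.0125) and with DESeq2 (0.000428). In KO crypts Spdef was 10.9-fold higher in colon than in ileum (adjusted p = 0.00544), beside the 7.01-fold higher Atoh1 left there, whose part in it was not tested. In WT crypts the log2 of colon over ileum was 0.73 (adjusted p = 0.239), or 1.41 without ileum WT 2 (adjusted p = 0.00843). Sorted cells were 3.04-fold above WT crypts in colon and 3.26-fold in ileum (adjusted p = 0.00622 and 0.00369), and the colon call was lost without colon WT 1 (adjusted p = 0.0786).

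Gfi1 was the 1 factor called in KO crypts of both tissues. In colon it had 9.61 and 18.6 CPM in WT, 1.95 and 1.76 in KO, and 62.0, 34.7 and 36.0 in GFP cells. In ileum it had 11.8 and 12.2 CPM in WT, 1.48 and 1.13 in KO, and 47.0, 102 and 77.5 in GFP cells. WT values overlapped between the tissues, and so did GFP values, while the KO groups lay below all others. The falls were 7.66-fold in colon (log2 −2.94, SE 0.35, adjusted p = 0.0403) and 8.94-fold in ileum (log2 −3.16, SE 0.36, adjusted p = 0.0144). Their difference was 0.22 on the log2 scale (SE 0.49, adjusted p = 1). In sorted cells Gfi1 was 3.13-fold above WT crypts in colon and 6.29-fold in ileum (adjusted p = 0.00243 and 7.91e-05). The difference of those rises did not pass (log2 −1.01, SE 0.49, adjusted p = 0.308), except with no filter on low counts (0.0473). Between sorted cells the log2 of colon over ileum was −0.77 (SE 0.3, adjusted p = 0.0813). It passed without colon GFP 1 (−1.09, adjusted p = 0.0217), without ileum GFP 1 (−1.02, 0.0227) and with no filter (0.00139).

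Bhlha15 was the 1 member with lower levels in colon than in ileum in all 3 settings. Colon values were 8.57 and 9.36 CPM in WT, 1.16 and 0.983 in KO (16 and 14 counts), and 34.9, 27.6 and 28.8 in GFP cells. Ileum values were 28.8 and 63.6 CPM in WT, 6.64 and 3.31 in KO, and 110, 184 and 179 in GFP cells. Sorted colon cells overlapped with whole ileum WT crypts, and the other neighbours in the order did not overlap. The log2 of colon over ileum was −2.35 in WT crypts (SE 0.44, adjusted p = 0.0132), −2.24 in KO crypts (SE 0.57, adjusted p = 0.0321) and −2.37 in sorted cells (SE 0.30, adjusted p = 0.000131), that is 5.1-, 4.71- and 5.17-fold. The WT call was lost without colon WT 1 (adjusted p = 0.0944) or colon WT 2 (0.088), and the KO call without colon KO 1, colon KO 2 or ileum KO 1 (0.13, 0.172 and 0.151) and with no filter on low counts (0.0903).

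Against WT crypts, Bhlha15 fell 9.09-fold in ileum KO (log2 −3.18, SE 0.46, adjusted p = 0.0385), a call lost with no filter on low counts (0.0899) and when only the 4 ileum crypt libraries were fitted (0.236). It had a log2 fold change of −3.07 in colon KO (SE 0.55, adjusted p = 0.172; 0.00508 when only the 4 colon crypt libraries were fitted and 0.0122 when all 14 were). The interaction was 0.11 (SE 0.80, adjusted p = 1). Sorted cells were above WT crypts by 3.39-fold in colon and 3.42-fold in ileum (adjusted p = 0.00164 and 0.000808). Of 11 tested genes of secretory maturation linked to this factor, 6 were higher and 1 lower in sorted cells of each tissue (medians 0.69 and 0.74, against 0.01 and −0.06 for all genes). Of all genes, 22.3% were higher and 23.6% lower in colon sorted cells, and 24.6% and 28.1% in ileum. Copz2, a subunit of COPI vesicle coats, was 63.0 CPM in colon GFP cells and 7.07 in colon WT, and 30.5 and 5.88 CPM in ileum. It was thus higher in colon than in ileum GFP cells (log2 1.04, adjusted p = 0.00559), where Bhlha15 was lower. In ileum KO crypts Copz2 (0.192 CPM) and the glucose transporter Slc2a10 (0.464 against 13.0 CPM) fell, 2 of 10 tested, and in colon KO edgeR called 0 of 10 (6 had an unadjusted p under 0.05, and DESeq2 called 3).

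The CREB3-type factors differed from each other. Creb3l1 had the highest level per length of the 9 in sorted cells, at 372 CPM per kb of exon in colon and 228 in ileum. Its level was 256 and 358 CPM in colon WT, 190 and 180 in colon KO, and 1000, 952 and 953 in colon GFP cells. In ileum it was 72.7 and 115 CPM in WT, 33.0 and 36.5 in KO, and 327, 705 and 745 in GFP cells. Colon KO crypts thus held more Creb3l1 RNA than ileum WT crypts, and the groups within a tissue did not overlap.

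Creb3l1 had a log2 fold change of −0.74 in colon KO (SE 0.24, adjusted p = 0.491) and −1.40 in ileum KO (SE 0.25, adjusted p = 0.0598), neither of them called. The ileum value passed without ileum WT 1 (−1.69, adjusted p = 0.00174), with all 14 libraries (0.0469) and with DESeq2 (1.65e-06). In sorted cells it rose 3.15-fold over WT crypts in colon and 6.32-fold in ileum (adjusted p = 0.000851 and 2.23e-05). The difference of those rises was −1.0 on the log2 scale (SE 0.42, adjusted p = 0.242), and it was called without ileum GFP 1 (−1.30, adjusted p = 0.0261). Creb3l1 was 3.3-fold higher in colon than ileum WT crypts and 5.2-fold higher in colon than ileum KO crypts (adjusted p = 0.00459 and 0.00118).

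Creb3l4, in contrast, stood at like levels in the WT crypts of both tissues. Its values were 25.9 and 42.7 CPM in colon WT, 5.92 and 8.50 in colon KO, and 147, 155 and 139 in colon GFP cells. They were 21.5 and 40.1 CPM in ileum WT, 2.34 and 0.977 in ileum KO (30 and 13 counts), and 97.4, 171 and 194 in ileum GFP cells. WT values overlapped between tissues, as did GFP values. The fall was 18.1-fold in ileum KO (log2 −4.18, SE 0.54, adjusted p = 0.0279). That call was lost with no filter on low counts (0.0817) and when only the 4 ileum crypt libraries were fitted (0.166). The colon log2 fold change of −2.26 (SE 0.46, adjusted p = 0.215) did not pass, except with all 14 libraries (0.0371) and with DESeq2 (4.93e-05). Sorted cells were 4.28-fold above WT crypts in colon and 5.02-fold in ileum (adjusted p = 0.000698 and 0.000279). In KO crypts alone Creb3l4 was called higher in colon than in ileum (4.26-fold, adjusted p = 0.0373), a call lost without any 1 of the 4 KO libraries (0.0652 to 0.175).

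Of the relatives, Creb3l3, a liver and small intestine factor of lipid metabolism, moved the other way from Creb3l1 and Creb3l4. It was 50.6 ± 1.87 CPM in ileum WT (SD, n = 2) and 1.01 ± 0.143 in ileum GFP cells (n = 3; log2 −5.65, adjusted p = 4.22e-08). Creb3l2 was higher in ileum GFP cells (78.9 ± 27.6 against 27.5 ± 1.46 CPM, adjusted p = 0.000609). Among 24 secretory pathway genes of the kind these factors and XBP1 act on, 11 were higher and 1 lower in colon GFP cells, and 13 were higher and 1 lower in ileum GFP cells (medians 0.65 and 0.69). Beside them, 22.3% of all genes were higher and 23.6% lower in colon, and 24.6% and 28.1% in ileum. Kdelr3, which returns proteins to the endoplasmic reticulum, rose from 23.1 to 104 CPM in colon and from 20.1 to 99.4 CPM in ileum. In KO crypts the disulfide isomerases Pdia5 and Txndc5 fell in colon (log2 −1.46 and −1.33, adjusted p = 0.00515 and 0.0465) and in ileum (−0.87 and −1.66, adjusted p = 0.0152 and 0.0103), and Kdelr3 fell in ileum (−3.41, adjusted p = 0.0144). The chaperone Hspa5 had log2 fold changes of −0.76 and −0.34 in the KO of colon and ileum (adjusted p = 0.46 and 0.604), and 0.61 and 0.57 in sorted cells (0.232 and 0.248).

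Of the 3 forkhead factors, Foxa3 was called higher in sorted cells of both tissues, Foxa2 in ileum, and Foxa1 was not called in any comparison of KO or sorted cells with WT. Foxa3 had 31.9 and 52.7 CPM in colon WT, 19.7 and 16.4 in colon KO, and 134, 106 and 143 in colon GFP cells. In ileum it had 26.0 and 47.5 CPM in WT, 10.6 and 11.6 in KO, and 117, 164 and 134 in GFP cells. The KO, WT and GFP groups did not overlap within a tissue, while WT and GFP values overlapped between tissues. Sorted cells were above WT crypts by 3.01-fold in colon and 3.76-fold in ileum (adjusted p = 0.000361 and 7.32e-05). Log2 fold changes in KO were −1.24 in colon (SE 0.34, adjusted p = 0.379) and −1.69 in ileum (SE 0.36, adjusted p = 0.0983). The ileum value passed without ileum WT 1 (0.00718), with all 14 libraries (0.00707) and with DESeq2 (8.18e-05).

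Foxa2, low in ileum crypts, had 4.11 and 4.65 CPM in ileum WT (54 and 56 counts), 2.03 and 2.93 in ileum KO, and 11.7, 25.3 and 20.8 in ileum GFP cells. In colon it had 21.8 and 20.8 CPM in WT, 18.9 and 20.7 in KO, and 39.0, 23.2 and 31.5 in GFP cells. Ileum GFP cells overlapped with colon KO crypts, and colon KO lay just under colon WT. In ileum Foxa2 was 4.43-fold higher in sorted cells than in WT crypts (log2 2.15, SE 0.32, adjusted p = 9.24e-05), and in colon the log2 difference was 0.55 (SE 0.28, adjusted p = 0.12). The difference between the tissues was −1.59 (SE 0.41) and missed the threshold (adjusted p = 0.0646), and it passed without ileum GFP 1 (−1.84, adjusted p = 0.00902), without colon GFP 1 (0.0425) and with DESeq2 (0.018). Between tissues, colon was above ileum by 4.9-fold in WT and 7.76-fold in KO (adjusted p = 0.000362 and 0.000125), with a log2 of 0.69 in sorted cells (SE 0.25, adjusted p = 0.0658). In KO crypts Foxa2 had log2 fold changes of −0.12 in colon (SE 0.17) and −0.78 in ileum (SE 0.21), neither called (adjusted p = 0.965 and 0.163).

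Foxa1 varied least, between 49.8 and 115 CPM over the 14 libraries. It had 87.3 and 113 CPM in colon WT, 88.9 and 89.6 in colon KO and 115, 91.0 and 87.0 in colon GFP cells, which all overlap. In ileum it had 54.9 and 70.0 CPM in WT, 56.8 and 49.8 in KO and 70.3, 77.6 and 78.7 in GFP cells, where WT and KO overlap. Log2 fold changes in KO were −0.18 in colon and −0.20 in ileum (SE 0.17 each), and in sorted cells −0.04 and 0.27 (SE 0.17 each), none called (adjusted p = 0.917, 0.671, 0.874 and 0.195). Foxa1 was higher in colon than ileum WT crypts (1.62-fold, adjusted p = 0.0273), a call lost without colon WT 2 or ileum WT 1 (0.156 and 0.0546), and in colon than ileum KO crypts (1.64-fold, adjusted p = 0.0206), a call lost without any 1 of the 4 KO libraries (0.0701 to 0.131).

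**Figure D2:**
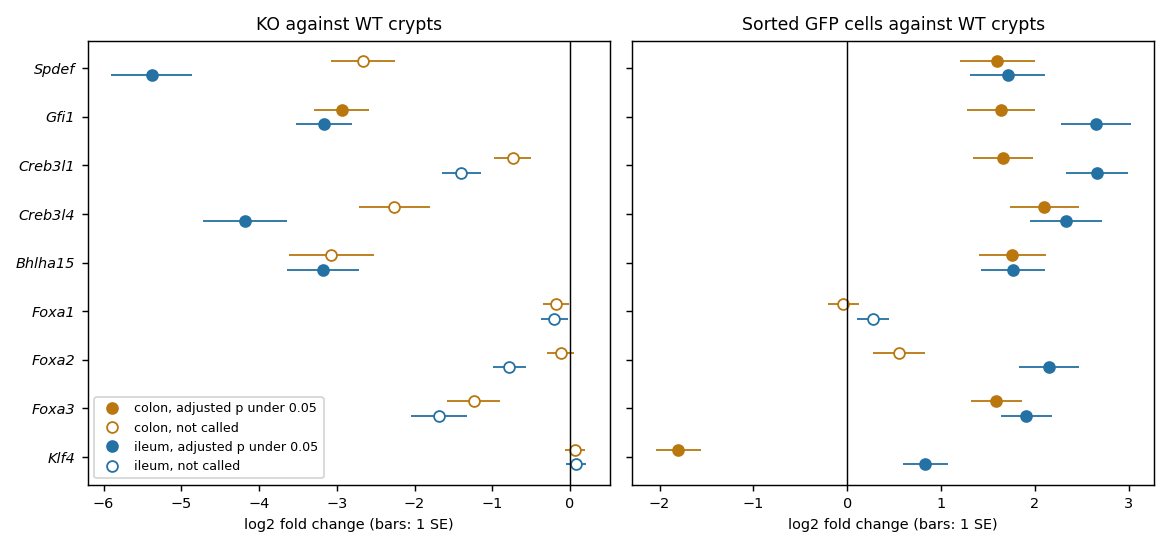
Log2 fold change of each factor in KO crypts (left) and sorted GFP cells (right) against WT crypts of the same tissue, with 1 SE from edgeR; filled points have an adjusted p under 0.05. Klf4 in sorted cells lies at −1.80 in colon and 0.83 in ileum, and Foxa1 is not called in any of the 4 comparisons. Both panels share the WT libraries.

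Klf4 was the 1 factor of the 9 whose sorted-cell difference was called in opposite directions in the tissues. In colon crypts it was 421 and 472 CPM in WT and 426 and 515 in KO, while colon GFP cells had 148, 114 and 124 CPM. In ileum it was 144 and 128 CPM in WT, 141 and 139 in KO, and 150, 292 and 279 in GFP cells. KO and WT values overlapped in both tissues, and colon GFP cells lay far below colon crypts. Ileum GFP 1, at 150 CPM, was just above ileum WT 1.

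Colon sorted cells had 3.47-fold less Klf4 than colon WT crypts (log2 −1.80, SE 0.24, adjusted p = 4.71e-05). Ileum sorted cells had 1.77-fold more than ileum WT crypts (log2 0.83, SE 0.24, adjusted p = 0.0116), a call lost without ileum WT 2 (0.73, adjusted p = 0.0853) and with the 5 ileum WT and GFP libraries alone (0.0618). The interaction was −2.62 (SE 0.34, adjusted p = 0.00163), beside 2.19% of 15274 genes called, 0.89% lower and 1.3% higher, and it was −2.46 to −2.87 without any 1 of the 10 libraries. Klf4 was 3.32-fold higher in colon than ileum WT crypts and 3.29-fold higher in KO crypts (adjusted p = 0.000319 and 0.000261), but 1.87-fold lower in colon than ileum sorted cells (log2 −0.90, SE 0.22, adjusted p = 0.00873). In KO against WT crypts the log2 fold changes were 0.06 in colon and 0.08 in ileum (SE 0.13 each, adjusted p = 0.976 and 0.851).

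Sums of other cell markers also differed between these groups. The 10 absorptive markers summed to 3616 to 9385 CPM in colon WT and 575 to 1057 in colon GFP cells, and to 4142 to 4537 CPM in ileum WT and 1323 to 2233 in ileum GFP cells. In sorted cells 6 of the 10 were called lower in colon, and 7 lower and 1 higher in ileum, where Klf4 was higher. Fabp2, which binds fatty acids, did not follow the sum: it had 813 and 712 CPM in ileum WT and 1043, 1438 and 1320 in ileum GFP cells, most of the sum there, and 234 and 120 CPM in colon WT against 360, 221 and 299 in colon GFP cells. A set of 6 immediate early genes of tissue dissociation (Fos, Fosb, Jun, Junb, Egr1 and Atf3) summed to 269 to 324 CPM in colon WT and 535 to 742 in colon GFP cells, and to 129 to 177 CPM in ileum WT and 605, 1377 and 1028 in ileum GFP 1 to 3. This sum was higher in sorted cells of both tissues, while Klf4 was lower in colon. Of the 6 genes, 3 were called higher and 1 lower in colon, and 5 higher and 1 lower in ileum. Junb went against the sum, from 66.0 and 65.1 CPM in colon WT to 2.76, 3.49 and 7.32 in colon GFP cells. In ileum it went from 41.7 and 30.8 CPM to 4.26, 3.06 and 8.57. Of all genes, 22.3% were higher and 23.6% lower in colon sorted cells, and 24.6% and 28.1% in ileum. Klf4 and that sum were both lowest in library 1 of the ileum GFP cells. The part of either set in the Klf4 difference was not tested. Klf5, of the same family as Klf4 and a factor of crypt progenitors, was not called in sorted cells of either tissue. Its levels were 236 against 215 CPM in colon and 176 against 218 in ileum (adjusted p = 0.56 and 0.145). Elf3, of the Ets family like Spdef, was lower in sorted cells of both tissues. It had 154 against 538 CPM in colon and 157 against 426 in ileum (adjusted p = 1.74e-05 and 7.97e-05).

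**Figure D3:**
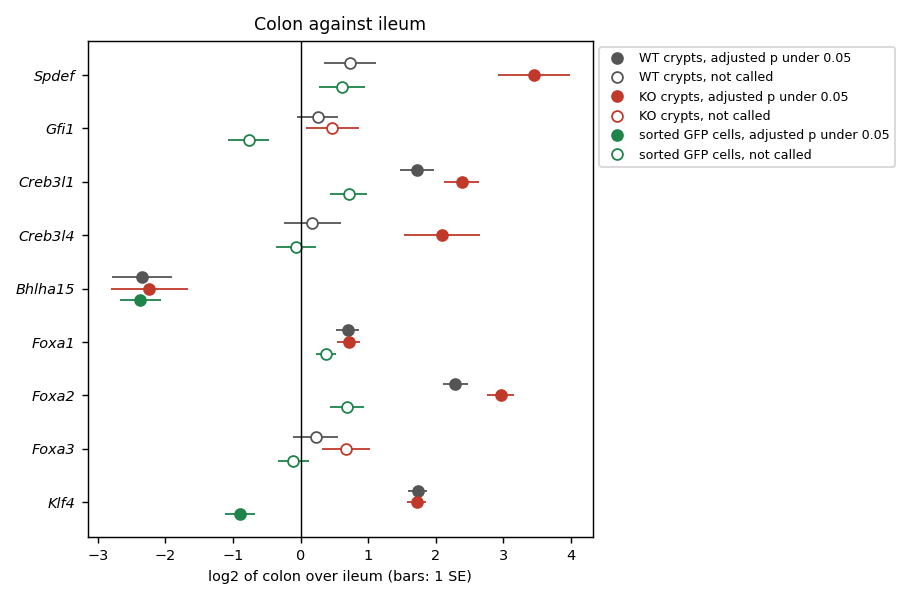
Log2 of colon over ileum for each factor in WT crypts, KO crypts and sorted GFP cells, with 1 SE from edgeR; filled points have an adjusted p under 0.05. Bhlha15 lies between −2.24 and −2.37 in the 3 settings, and Klf4 lies at 1.73 and 1.72 in crypts and −0.90 in sorted cells.

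Across tissues, 5 of 9 factors were called between colon and ileum WT crypts, where 19.9% of genes were, 10.2% higher in colon and 9.71% lower. Between KO crypts 7 of 9 were called, beside 25.7% of genes, 13.1% higher and 12.6% lower, and between sorted cells 2 of 9, beside 22.7% of genes, 12.6% higher and 10.2% lower. Creb3l1, Foxa1, Foxa2 and Klf4 were higher in colon WT crypts and Bhlha15 was lower. Spdef and Creb3l4 were added to these in KO crypts, both higher in colon. In sorted cells Bhlha15 and Klf4 were called, both lower in colon. The same 2 plus Gfi1, Creb3l1 and Foxa1 were called over the 4 sorted-cell libraries whose tables share a number between tissues, with that number as a block. So few libraries leave little to estimate the spread from in that fit. WT and KO counts moved when a library was left out: 3 of 9 were called in WT without colon WT 2, and 4 of 9 in KO without colon KO 1, colon KO 2 or ileum KO 1.

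Per length, the order of the 9 factors changed from crypts to sorted cells. In colon WT crypts Klf4 led with 146 CPM per kb of exon, then Creb3l1 with 118, Spdef with 47.8 and Foxa1 with 30.1, and Bhlha15 was last with 2.57. In colon GFP cells Creb3l1 led, followed by Spdef with 145, Creb3l4 with 87.7 and Foxa3 with 62.7 CPM per kb, while Klf4 had 42.2. Ileum GFP cells had the same 3 in front, at 228, 95.0 and 91.9 CPM per kb, with Klf4 at 78.9, and Foxa2 was last at 8.15.

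Among the members themselves, Spdef and Creb3l4 had the most similar profiles over the 14 libraries (root-mean-square difference of mean-centred log2 CPM 0.57), then Gfi1 and Creb3l4 (0.62), and Bhlha15 and Klf4 had the least similar (2.72). Of 13079 other genes, the closest to Spdef was Rep15, which encodes a RAB15 effector (0.37), to Creb3l4 the KDEL receptor Kdelr3 (0.36), to Gfi1 the transporter Slc12a8 (0.38) and to Foxa3 the amino acid transporter Slc36a4 (0.27). The closest to Creb3l1 was Gng11 (0.36), to Foxa1 Manea (0.15), to Foxa2 Nceh1 (0.34) and to Klf4 Csrnp1 (0.35), while Bhlha15 had no gene nearer than Samd5 (0.77). The libraries share these groups, so these distances largely describe differences between groups.

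The other regulators of the secretory line were tested beside the 9. Of 14 tested in crypts, 2 fell in colon KO and 4 in ileum KO. Of 15 tested with sorted cells, 6 were higher and 4 lower in colon, and 8 higher and 4 lower in ileum. The counts of both tissues include Atoh1 itself, the gene targeted in KO and tagged for sorting, as fallen and as higher. Cbfa2t3, a corepressor of the MTG family, fell from 23.5 to 3.13 CPM in colon KO and from 16.7 to 0.920 CPM in ileum KO (adjusted p = 0.0129 and 0.0026). Xbp1, the activator of the unfolded protein response, had log2 fold changes of −0.46 and −0.29 in KO (adjusted p = 0.456 and 0.457), and was 610 against 197 CPM in colon sorted cells (adjusted p = 9.35e-05). The Notch target Hes1 was lower in colon sorted cells (20.5 against 55.5 CPM, adjusted p = 0.000373). Of 23 tested relatives of the 9 factors (other KLF, Ets, forkhead and CREB3 family genes and Gfi1b), 0 were called in KO crypts of either tissue by edgeR (medians 0.00 and −0.07). At an unadjusted p under 0.05 there were 4 in colon and 7 in ileum, and DESeq2 called 1 in each. In sorted cells 6 were higher and 9 lower in colon, and 9 higher and 6 lower in ileum. Beside both lists, 22.3% of all genes were higher and 23.6% lower in colon sorted cells, and 24.6% and 28.1% in ileum. In KO crypts 0.146% of genes were lower in colon and 1.09% in ileum.

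Products of the goblet and Paneth cells were followed in the same libraries. Of 19 tested goblet genes 4 fell in colon KO and 11 in ileum KO (medians −2.77 and −4.57). At an unadjusted p under 0.05 there were 17 in colon and 18 in ileum, and DESeq2 called 13 and 18. The KO difference between the tissues was called by edgeR for 0 of the 19. In sorted cells 12 rose in colon and 14 in ileum. In ileum sorted cells Retnlb, an antimicrobial resistin-like protein, was lower (5.45 ± 3.26 against 380 ± 521 CPM, SD, with n = 3 and 2, adjusted p = 0.00526 in the edgeR fit). The mucin Muc2 had 33012 against 1069 CPM in colon sorted cells and 16858 against 412 CPM in ileum (adjusted p = 0.000107 and 5.05e-05). Clca1 and Fcgbp, 2 abundant mucus proteins, were not called in colon sorted cells (4171 against 6014 and 2729 against 5055 CPM, adjusted p = 0.519 and 0.256), in which Spdef was 3.04-fold higher. Of 17 Paneth genes tested, 5 fell in ileum KO, among them Habp2, a hyaluronan-binding protease (3.38 against 70.5 CPM, adjusted p = 0.0104). There 15 of the 17 had an unadjusted p under 0.05 and DESeq2 called 14. In colon KO edgeR called 0 of the 17, where 6 had an unadjusted p under 0.05 and DESeq2 called 4. Of 7 tuft markers tested, edgeR called 0 in KO of either tissue (medians −1.02 in colon and −4.48 in ileum). In ileum all 7 had an unadjusted p under 0.05 and DESeq2 called 7, beside ileum WT 2, the library high in tuft markers, and in colon both counts were 0. Of 10 enteroendocrine markers 5 fell in ileum KO (8 had an unadjusted p under 0.05, and DESeq2 called 7). In colon KO edgeR called 0 (4 had an unadjusted p under 0.05, and DESeq2 called 1). In sorted cells 2 were higher and 5 lower in colon, and 1 higher and 7 lower in ileum. Beside these lists, 22.3% of all genes were higher and 23.6% lower in colon sorted cells, and 24.6% and 28.1% in ileum. In KO crypts 0.146% of genes were lower in colon and 1.09% in ileum.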

How the data were processed

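Per the labels' protocols, total RNA was taken up in Trizol, cleaned on RNeasy columns and sequenced on the Illumina platform. The deposited values are raw counts of reads per Ensembl gene, aligned with TopHat 1.4.1 and counted with HTSeq on build mm9, per the submitters' processing notes; neither the annotation release nor the strand setting is named in the labels, so reads of overlapping and antisense genes cannot be told apart. Lines that name no gene were left out. Of 36536 genes, 31004 were given a symbol by Ensembl ID, and exon lengths came from GENCODE M21 on another build, so no mm9 coordinates are given. Genes were tested with edgeR 4.0.16 (TMM, filterByExpr by group, robust quasi-likelihood F-test, Benjamini-Hochberg adjustment over all genes tested) in R 4.3.3. KO against WT, and colon against ileum crypts, were fitted on the 8 crypt libraries, and comparisons with sorted cells on all 14. SE is the absolute log2 fold change over the root of F. The fits were tested on simulated data. Alternatives were DESeq2 1.42.0, its size factors, totals that leave out genes with over 1% of a library, dropping the low-count filter, a replicate block, other sets of libraries and leaving out each library. The 9 members and all lists were chosen with earlier results of these data known. The text names, besides members, up to 4 called genes per list with the largest change at 5 CPM or more in the higher group. Also named are up to 2 uncalled genes with the highest level. For each member the most similar gene of 1 CPM or more is named (prior count 2).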

Additional observations from a re-analysis of the deposited data

Results flagged for a closer look

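The difference of Klf4 between sorted GFP cells and WT crypts was −2.62 on the log2 scale as colon minus ileum (SE 0.34, edgeR adjusted p = 0.00163). It is listed because the 2 tissues differed under the same contrast by the test of that difference. The sorted-cell log2 fold change was −1.80 in colon and 0.83 in ileum, with all 3 colon GFP libraries below both colon WT libraries and all 3 ileum GFP libraries above both ileum WT libraries.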

How the results depend on the processing

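With 2 or 3 libraries per group, counts of calls in KO moved most. Of the members, DESeq2 called 5 in colon KO (1 by edgeR), 1 for the KO difference between tissues (0 by edgeR) and 2 for the sorted-cell difference between tissues (1 by edgeR). With no filter on low counts, 2 were called in ileum KO (4 with it), 3 for the sorted-cell difference and 6 between sorted cells (2 with it). A fit of all 14 libraries called 4 in colon KO. With only the 2 groups compared, 3 were called in colon KO, 0 in ileum KO and 2 between WT crypts (5 before). With the number that sorted-cell tables share as a block, 5 were called between sorted cells. Without 1 replicate, members called ranged from 0 to 1 in colon KO, 0 to 6 in ileum KO, 0 to 1 for the KO difference (1 without ileum WT 1), 1 to 3 for the sorted-cell difference, 3 to 6 between WT crypts and 4 to 5 between KO crypts. Of all genes, colon KO went from 22 to 56 with no filter, 157 with DESeq2, 73 with all 14 libraries, 102 with 2 groups and 0 to 14 without 1 replicate. Ileum KO went from 176 to 511 with DESeq2, 265 with all 14, 4 with 2 groups and 11 to 1403 without 1 replicate (1403 without ileum WT 1). The KO difference went from 1 to 9 with no filter, 56 with DESeq2 and 0 to 335 without 1 replicate (335 without ileum WT 1). Sorted cells against WT went from 7007 to between 4184 and 6995 in colon without 1 replicate, the lowest without colon WT 1. The sorted-cell difference went from 335 to 1093 with no filter, 800 with DESeq2 and 137 to 672 without 1 replicate (137 without colon WT 2, 672 without ileum GFP 1). Between sorted cells 3474 became 2147 with 2 groups. Between WT crypts 2872 became 1836 with all 14, 1213 with 2 groups and 1289 to 3544 without 1 replicate, and between KO crypts 3699 became 2394 with all 14 and 1603 to 2044 without 1 replicate. The causes were not tested. Where 1 library was left in a group, it was assumed to vary like the others. No direction of a called value turned. With a replicate block, 1 member was called in colon KO and 4 in ileum KO (Creb3l1 at an adjusted p of 0.0321 in place of Bhlha15 at 0.0627), 3 between sorted cells and 6 between KO crypts (without Bhlha15, 0.0532), with 30 and 201 genes in colon and ileum KO. Same-numbered KO and WT libraries had correlated deviations of −0.01 in colon and 0.08 in ileum, and no label ties a KO library to a WT library of the same number. A block on the number that colon and ileum crypt tables share, added after seeing the data, called 5 members between WT and 8 between KO crypts, where deviations correlated at 0.26 and 0.29.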
